A study of Ovis aries with 2 samples.

Results

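The stretch of sheep chromosome 13 with locus starts from 40 to 60 Mb was examined because it was proposed as the neighbourhood of BMP2, a candidate gene for the fat tail. Its members are all loci of the deposited tables that start in this range, counted as deposited, and span at least 200 bp. They numbered 364 of 30931 such loci in the thin-tail table and 369 of 32501 in the fat-tail table. Position and span alone chose the members, and no measured level entered the rule, though it was set with earlier results of these data known.

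Transcript levels had been measured by sequencing poly(A) RNA of subcutaneous fat from Iranian native sheep, with 1 library read from its title as that of thin-tailed sheep (thin-tail library) and 1 as that of fat-tailed sheep (fat-tail library). All lambs were weaned at 90 days, fed the same diet without restriction for 120 days and slaughtered at 7 months, with no treatment in either group. Subcutaneous fat is the labelled tissue of each, so Fat in 1 title could name tissue rather than tail, and every direction below rests on reading it as the tail type. The sources used here give neither the breed behind each library nor whether animals were pooled. The series description mentions duplicates, while the data analysed here hold 1 library per tail type. The tables carry no gene names, so the tissue was not checked against adipocyte markers. In such bulk RNA, fewer cells of a type and less RNA per cell cannot be told apart. With 1 library per tail type no test was possible, every difference is one between these libraries, and the ranges in brackets are the deposited intervals.

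BMP2 is a secreted ligand of the transforming growth factor beta superfamily. It binds type I and type II serine/threonine kinase receptors and signals through receptor-activated SMAD proteins to target genes such as those of the ID family. BMP signalling takes part in the commitment of mesenchymal precursors to bone and to fat, and genome scans that compared fat-tailed with thin-tailed sheep have pointed to chromosome 13 near this gene. In the RefSeq gene table used (ARS-UI_Ramb_v3.0), the nearest protein-coding genes with a symbol on either side of BMP2 are FERMT1, an integrin regulator of epithelial cells, and HAO1, a peroxisomal glycolate oxidase of liver. The sources used here name no build for the deposited positions. None of the 16316 distinct Ensembl identifiers in the tables occurred in that gene table. No locus was therefore assigned to BMP2 or to any other gene, and loci are described by position, with starts counted from 1 and ends as in the thin-tail table unless the other is named.

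Levels are given as FPKM, mapped fragments scaled by transcript length and by a library total. The sources used here do not state which total was used or how the libraries were scaled to each other. Of the segment's loci, 125 in the thin-tail and 135 in the fat-tail table carried an Ensembl identifier, and the others, 239 and 234, had been assembled from that library's own reads. Listed at 0 were 69.6% and 66.7% of the loci with an identifier, against 0.837% and 2.99% of the assembled ones. All 364 and 369 loci carried the status OK, so none of these zeros was marked as a failed estimate. Whether a locus listed at 0 lacked transcripts was not tested. In the thin-tail library 238 loci reached 1 FPKM and 20 reached 100 FPKM; in the fat-tail one these counts were 227 and 14. The total depth is unknown. The median locus above 0 rested on 58.9 and 59.3 fragments as implied by the width of its interval.

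Loci of the tables were matched when each was the other's best partner and at least 80% of either span was shared. The segment held 290 such matched loci, and 75 of them were listed at 0 in both libraries. The 170 with at least 1 FPKM in 1 library entered the comparison. Ratios are on the scale of log2 after adding 1 FPKM to each level, positive where the fat-tail library was higher, which shrinks ratios between low levels. The rest of chromosome 13 held 570 matched and 324 compared loci, and all chromosomes together held 13030 compared loci.

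Most loci of the segment had levels within 2-fold in the libraries, and the share of loci that differed 2-fold was near that of the whole genome. At least 2-fold higher in the fat-tail library were 12 of the 170 loci (7.06%), against 8.22% of all compared loci. At least 2-fold lower were 27 (15.9%), against 14.7% of all compared loci. The remaining 131 loci (77.1%) lay within 2-fold. Log2 ratios of the segment had a median of -0.13 and quartiles of -0.66 and 0.27, and those of all compared loci a median of -0.12. Neither count set the segment apart from the genome. Across the 170 loci, which are not replicates, levels had a Pearson correlation of 0.902 on the log2 scale and a Spearman correlation of 0.882; over all compared loci these were 0.895 and 0.867.

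**Figure D1:**
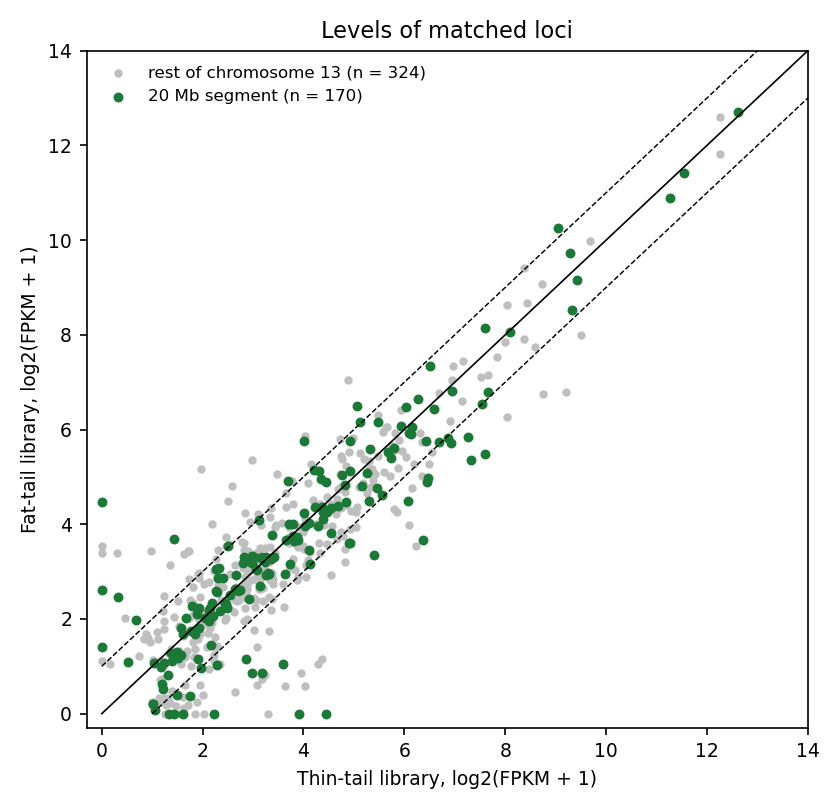
Levels of matched loci as log2(FPKM + 1), thin-tail library on the x axis and fat-tail library on the y axis, with 1 point per locus, green for the 20 Mb segment (n = 170) and grey for the rest of chromosome 13 (n = 324). The solid line marks equal levels and the dashed lines 2-fold differences; 131 of the 170 green points lie between the dashed lines, and points at 0 on either axis are listed at 0 in that library.

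The rest of chromosome 13 had a similar share of lower loci and a larger share of higher ones than the segment. It had 34 loci at least 2-fold higher (10.5%) and 52 lower (16.0%). Its levels had a Pearson correlation of 0.867 on the log2 scale and a Spearman correlation of 0.814. Its log2 ratios had quartiles of -0.74 and 0.41 and a median of -0.21. The median of the segment thus lay 0.08 above that of the rest on the log2 scale. By position, the chromosome before 20 Mb had a median of -0.15 over 63 loci, the stretch from 20 to 40 Mb -0.20 over 83 loci and the part beyond 60 Mb -0.26 over 178 loci. The 95% rank interval of the segment's median was -0.18 to -0.04, and that of the rest -0.32 to -0.10. These intervals treat loci as independent, which neighbouring loci need not be. They describe spread over loci, which are not replicates, and not between animals or libraries, so they serve as no test.

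Loci of the segment were shorter, with a median span of 9697 bp against 19041 bp in the rest of the chromosome and 12625.5 bp over all compared loci. Among loci up to that last span, the median log2 ratio was -0.06 over 96 loci of the segment and 0.09 over 139 of the rest. Among longer loci it was -0.17 over 74 and -0.39 over 185. The segment therefore lay below the rest among short loci and above it among long ones, and the small difference between their medians had no single direction across span.

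Deposited intervals that did not overlap between the libraries were found for 69 of the 170 loci (40.6%), against 50.6% of all compared loci and 56.2% of the rest of the chromosome. The fat-tail level was higher at 27 of these loci (15.9% of the 170, against 19.3% of all compared loci) and lower at 42 (24.7%, against 31.2%). Among the loci past 2-fold, intervals were apart for 9 of the 12 higher ones and 24 of the 27 lower ones, or 5.29% and 14.1% of the 170, against 7.63% and 13.6% of all compared loci. Log2 ratios below 0 were listed for 106 loci (62.4%), against 56.6% of all compared loci. The interval of a value reflects the fragments behind it and the authors' estimation, not the spread between animals.

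**Figure D2:**
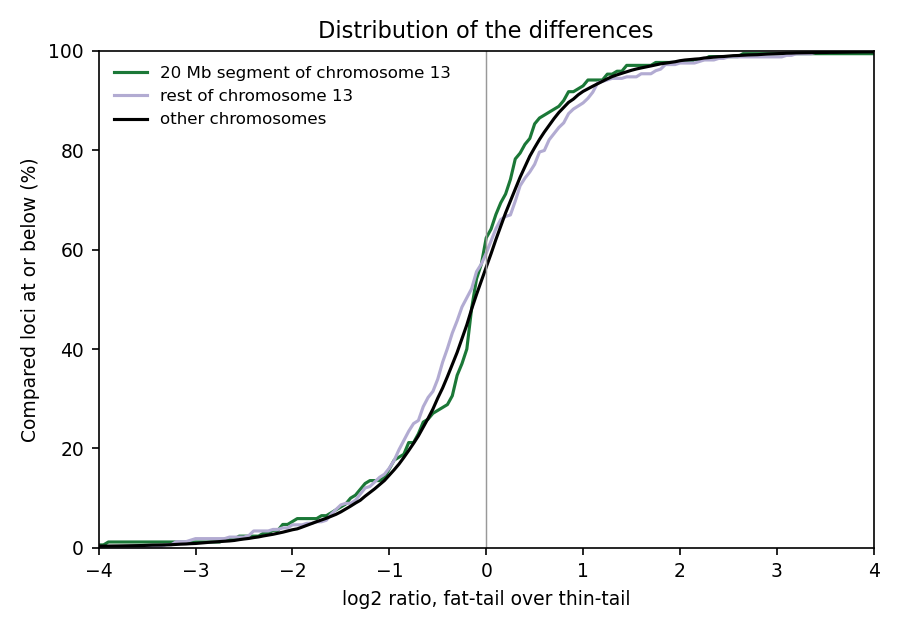
Share of compared loci (y axis, percent) at or below each log2 ratio of fat-tail over thin-tail FPKM + 1 (x axis) for the segment, the rest of chromosome 13 and the other chromosomes. At -0.35 the segment has 30.6% of loci at or below, the rest of its chromosome 43.2% and the other chromosomes 36.9%. At 0.3 these are 78.2%, 69.8% and 72.2%. The medians of the segment and of the rest of its chromosome are -0.13 and -0.21.

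From 48 to 52 Mb, 38 of 47 matched loci were compared, and 27 of them lay within 2-fold. Higher by at least 2-fold were 5 loci (13.2%, against 8.22% of all compared loci) and lower were 6 (15.8%, against 14.7%), with a median of -0.16. Compared loci were sparse at first and dense later: 3 compared loci started from 48 to 50 Mb and 35 from 50 to 52 Mb. The widest interval without a compared locus ran over 1220997 bp, from the end of a locus at 49023767 to the start of the next at 50244765.

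The only compared locus from 48 to 49 Mb (48462232 to 48473565, 11334 bp) was low in both libraries. It was listed at 1.81 FPKM (1.27 to 2.35) in the thin-tail and 1.45 FPKM (0.970 to 1.93) in the fat-tail library, and the intervals overlapped. A locus of 246263 bp at 48604903 to 48851165 was listed at 0 in both libraries. The overlapping locus at 48820759 to 48877389 was at 0 in the thin-tail and 0.165 FPKM (0 to 0.399) in the fat-tail library. Up to 49 Mb, levels were thus near or below the 1 FPKM used for comparison.

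From 49 to 50 Mb, a pair of loci lay within 4 kb of each other and differed in level. The first (49020246 to 49022223) stood at 1.08 FPKM (0.556 to 1.60) in the thin-tail and 0.0615 FPKM (0 to 0.184) in the fat-tail library, on 17 and 1.0 implied fragments. Its intervals did not overlap, and its log2 ratio of -0.97 fell just short of 2-fold on the scale used. The second (49023105 to 49023767, 663 bp) was the most abundant locus from 48 to 50 Mb, at 66.9 FPKM (59.1 to 74.6) and 59.7 FPKM (52.2 to 67.1), with overlapping intervals. A further 3 loci of this step, at 49181252, 49259441 and 49771680, were listed at 0 in both libraries.

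The first 9 compared loci beyond 50 Mb had low to moderate levels and overlapping intervals. The locus at 50616546 to 50645766 read 11.6 FPKM in both libraries. The loci starting at 50668293 and 50725361 read 5.21 and 8.56 FPKM in the thin-tail and 5.16 and 8.93 FPKM in the fat-tail library. The locus starting at 50745925 was higher than these, at 37.2 FPKM (33.9 to 40.5) and 33.0 FPKM (29.7 to 36.2). The log2 ratios of these 9 loci ran from -0.51, for the locus starting at 50288272, to 0.48, for the one starting at 50660625.

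Next to them lay the locus starting at 50751307, with a log2 ratio of 2.26. This was the highest of the inner 4 Mb among loci above 0 in both libraries, a ranking that holds with 1 FPKM added. The unadjusted fold was larger at the locus starting at 51750943, 17.8-fold higher in the fat-tail library. In the other direction, the locus starting at 49020246 was 17.6-fold lower there. The locus at 50751307 to 50754040 read 1.71 FPKM (0.50 to 2.91) in the thin-tail and 11.9 FPKM (9.13 to 14.7) in the fat-tail library, 6.99-fold higher, on 8.0 and 72.8 implied fragments. In the fat-tail table this locus ran on to 50754691. In the thin-tail table a separate locus without a partner, at 50754088 to 50754685, was listed at 11.6 FPKM (8.08 to 15.1) inside that extension. The fat-tail value thus covers a piece that the thin-tail table listed apart, at nearly the same level; the part of this in the ratio was not tested.

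The locus that followed, at 50759953 to 50772936, was the most abundant from 50 to 51 Mb. It read 102 FPKM (94.0 to 110) in the thin-tail and 52.3 FPKM (46.6 to 58.0) in the fat-tail library, 1.95-fold lower, with intervals apart and a log2 ratio of -0.95. The thin-tail table gave it the same identifier as the locus before it. Its other neighbour (50773287 to 50790398) read 59.8 FPKM (54.7 to 64.9) and 66.4 FPKM (61.2 to 71.6), with overlapping intervals. Adjoining loci thus went in different directions within 40 kb. The last loci of this step, starting at 50815756, 50839347, 50868281 and 50871319, had log2 ratios of -0.49, 0.20, -0.03 and -0.33 and overlapping intervals. A short locus at 50858086 to 50858543 was listed at 3.69 FPKM (0 to 7.95) in the thin-tail library, on 3.0 implied fragments, and at 0 in the fat-tail library.

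From 51 to 52 Mb, loci with intervals apart lay on both sides. Of 18 compared loci, 4 were 2-fold higher and 5 were 2-fold lower, where the shares of all compared loci were 8.22% and 14.7%. Intervals were apart for 12, with 6 in each direction, against 19.3% of all compared loci apart and higher and 31.2% apart and lower. The median log2 ratio was -0.01, since the directions balanced.

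**Figure D3:**
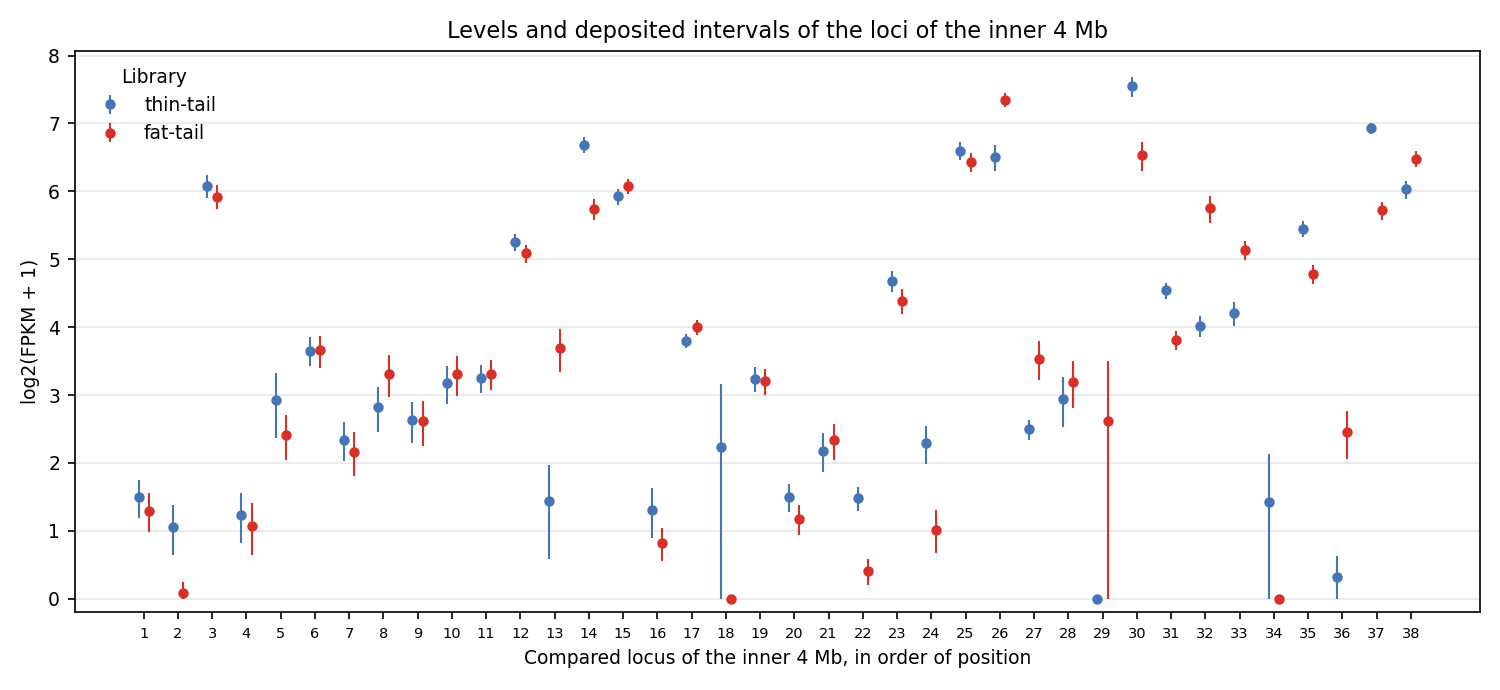
Level of each of the 38 compared loci of the inner 4 Mb (x axis, in order of position) as log2(FPKM + 1) on the y axis, blue for the thin-tail and red for the fat-tail library, with bars for the deposited intervals. Bars overlap for most of loci 1 to 20 and are apart for 12 of the 18 loci from 21 on; loci 18, 29 and 34 are listed at 0 in 1 library.

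Among the loci lower in the fat-tail library, 2 abundant ones had intervals far apart. The locus at 51453688 to 51455892, the highest of the inner 4 Mb in the thin-tail library, read 186 FPKM (167 to 205) there and 91.4 FPKM (78.1 to 105) in the fat-tail library, 2.03-fold lower, on 374 and 188 implied fragments. The locus at 51851434 to 51856574 read 121 FPKM (113 to 128) and 51.7 FPKM (47.0 to 56.5), 2.33-fold lower, on 1074 and 474 implied fragments. Its end overlaps the locus at 51855994 to 51861821, which went the other way, from 64.4 FPKM (58.4 to 70.5) to 88.0 FPKM (80.7 to 95.4). Without strand, fragments at such an overlap cannot be told apart.

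Also lower were 2 loci of low level. The locus at 51295540 to 51304909 read 3.90 FPKM (2.97 to 4.84) in the thin-tail and 1.03 FPKM (0.589 to 1.46) in the fat-tail library. The long locus at 51137982 to 51284584 read 1.80 FPKM (1.45 to 2.14) and 0.321 FPKM (0.150 to 0.493), on 111 and 14 implied fragments. In the fat-tail table this long locus ended at 51282854, and a locus without a partner followed at 51284114 to 51284576 with 5.94 FPKM (2.76 to 9.11), inside the extent of the thin-tail one. The tables thus divided that stretch differently, and the part of this in the 5.59-fold difference was not tested.

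Of the 4 loci higher in the fat-tail library, the locus at 51640558 to 51674421 had the highest level. It read 15.2 FPKM (13.5 to 16.9) in the thin-tail and 52.8 FPKM (45.5 to 60.1) in the fat-tail library, 3.48-fold higher, but 317 and 208 implied fragments, which go the other way. The same disagreement held at 51352304 to 51411601, with 4.63 FPKM (4.07 to 5.19) and 10.6 FPKM (8.31 to 12.8) on 269 and 87.2 implied fragments. FPKM and implied fragments thus gave opposite directions at both loci, and the cause was not tested. The locus at 51750943 to 51798513 read 0.252 FPKM (0 to 0.543) and 4.48 FPKM (3.15 to 5.81), on 3.0 and 45.3 implied fragments. Its fat-tail version started earlier, at 51749935, and took in a place where the thin-tail table listed a locus without a partner (51750001 to 51750674) at 4.14 FPKM (2.24 to 6.05). The locus at 51437893 to 51438654 was listed at 0 in the thin-tail and at 5.14 FPKM (0 to 10.3) in the fat-tail library, on 4.0 implied fragments, and its intervals overlapped.

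Some abundant loci of this step stayed within 2-fold but had intervals apart. The locus at 51322179 to 51335874, the highest of the inner 4 Mb in the fat-tail library, read 90.0 FPKM (77.8 to 102) in the thin-tail and 162 FPKM (151 to 173) in the fat-tail library. The adjoining locus at 51306638 to 51319502 read 95.7 FPKM (87.0 to 104) and 85.4 FPKM (76.8 to 94.1), with overlapping intervals. The loci at 51465363 to 51530581 and 51707797 to 51714249 were lower in the fat-tail library, from 22.3 to 13.03 FPKM and from 42.7 to 26.4 FPKM. The locus at 51674499 to 51679613, next to the 3.48-fold higher one, read 17.5 FPKM (15.2 to 19.8) and 34.3 FPKM (30.9 to 37.7), a 1.96-fold difference in the same direction that its implied fragments, 231 and 409, share. The remaining loci of the step, starting at 51126588, 51284642, 51368289 and 51690734, had log2 ratios of 0.15, -0.30, 0.25 and -1.43. The last of these was at 1.70 FPKM (0 to 3.39) in the thin-tail and listed at 0 in the fat-tail library.

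Over the whole segment, compared loci were unevenly spread, from 1 to 25 per 1 Mb step. The step from 53 Mb held the most, and those from 48 and from 55 Mb held 1 each. Medians lay below 0 in 17 of the 20 steps and above 0 in 3, where the median of all compared loci was itself -0.12. Steps outside the segment were not counted. Some of the 17 medians lay close to 0, such as -0.003 from 40 Mb and -0.006 from 51 Mb. Among the 8 steps with at least 8 compared loci, only that from 53 Mb had a median above 0, at 0.23 over 25 loci, with 3 loci 2-fold higher and 3 lower; the sign of this median and of 5 of the others changed under some settings. The steps from 41 and 42 Mb had medians of -0.33 and -0.34. No step stands on replicates, and medians over so few loci moved with single loci.

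**Figure D4:**
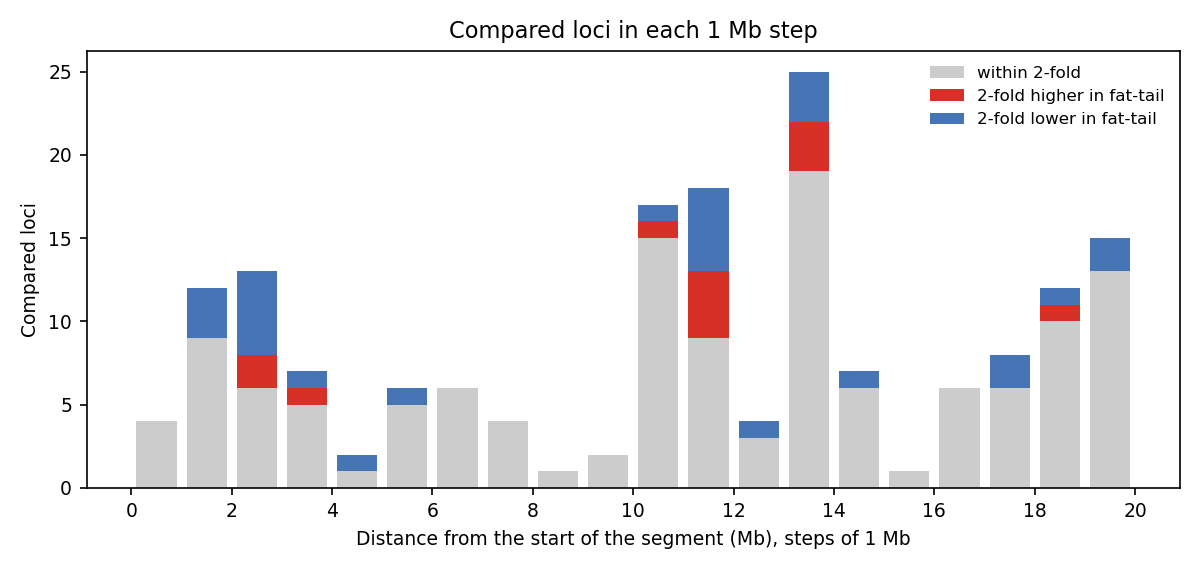
Number of compared loci (y axis) in each 1 Mb step by distance from the start of the segment (x axis), split into within 2-fold (grey), 2-fold higher (red) and 2-fold lower (blue) in the fat-tail library. The steps at 8 and 9 Mb from the start hold 1 and 2 loci, and that at 13 Mb holds 25.

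From 41 to 43 Mb, 8 of 25 compared loci were 2-fold lower and 2 were higher, against 14.7% and 8.22% of all compared loci; this stretch was singled out after its values were seen, so its counts support nothing. A run of 3 neighbouring loci there was lower throughout. The first (41697631 to 41710917) read 87.9 FPKM in the thin-tail and 30.6 FPKM in the fat-tail library, the second (41710268 to 41735389) 158 and 39.8 FPKM, and the third (41740727 to 41775868) 81.2 FPKM (76.2 to 86.1) and 11.6 FPKM (9.46 to 13.8). Their log2 ratios were -1.49, -1.96 and -2.70, and their implied fragments differed in the same direction. The first and second overlap at their ends, so they could share fragments, while the third overlapped no other locus. Its log2 ratio was the lowest among the lower loci of that kind in the segment, a ranking that holds with 1 FPKM added. Among those past 2-fold, unadjusted folds were larger at the loci starting at 42692124 (8.53-fold) and 54168537 (7.97-fold) than at the third (6.97-fold).

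At 42692124 to 42711362, ENSOARG00000010907 read 6.89 FPKM (5.09 to 8.68) in the thin-tail and 0.807 FPKM (0.197 to 1.42) in the fat-tail library, 8.53-fold lower, on 58.9 and 7.0 implied fragments. The thin-tail table gave the identifier, and the fat-tail one held an assembled locus with the same ends. Nearby, the locus at 42736074 to 42747597 read 11.98 FPKM (11.0 to 12.9) and 29.1 FPKM (22.8 to 35.4), 2.43-fold higher, while its implied fragments, 652 and 85.6, went the other way. By FPKM this locus differed in direction from ENSOARG00000010907, and by implied fragments it did not.

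Other loci with large differences, no overlapping neighbour and intervals apart were spread over the segment. In the segment, 5 higher and 9 lower loci met these conditions with values above 0 in both libraries. Loci under the same conditions were not counted over all chromosomes, so these counts show nothing particular to the segment. On the lower side, the locus at 57899485 to 57905593 read 193 FPKM (183 to 203) in the thin-tail and 43.4 FPKM (39.97 to 46.9) in the fat-tail library, 4.45-fold lower, on 1449 and 629 implied fragments. The locus at 59881816 to 59892063 read 153 FPKM (147 to 160) and 56.2 FPKM (52.4 to 59.9), 2.73-fold lower, and that at 45499673 to 45504080 read 29.0 FPKM (27.0 to 31.1) and 11.2 FPKM (9.81 to 12.6). In each of these 3 the implied fragments were at least 2-fold lower as well. The locus at 54168537 to 54178504 read 2.38 FPKM (1.67 to 3.10) and 0.299 FPKM (0 to 0.644). Its fat-tail version ended at 54176593, and that table listed a locus without a partner at 54176771 to 54178532 with 5.36 FPKM (4.16 to 6.57).

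On the higher side, the fifth locus of this kind, beside 3 from the inner 4 Mb and the 1 at 42736074, lay at 53127280 to 53147325. It read 32.4 FPKM (28.7 to 36.0) in the thin-tail and 89.1 FPKM (76.2 to 102) in the fat-tail library, 2.75-fold higher, on 316 and 190 implied fragments. Implied fragments shared the direction of most lower loci and of some higher ones. Of the 9 higher loci above 0 in both libraries, fragments went the same way for 5 and reached 2-fold for 2. Of the 21 lower ones, they went the same way for 19 and reached 2-fold for 15. Over all chromosomes the same counts were 674 and 448 of 936 higher loci, and 1487 and 1158 of 1670 lower ones. Implied fragments were not scaled for the depth of a library, which bears on their directions. In the segment the median locus above 0 rested on 58.9 of them in the thin-tail and 59.3 in the fat-tail library. Over all chromosomes it rested on 56.1 and 47.6. The difference between these shares, and the part of depth in it, was not tested.

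**Figure D5:**
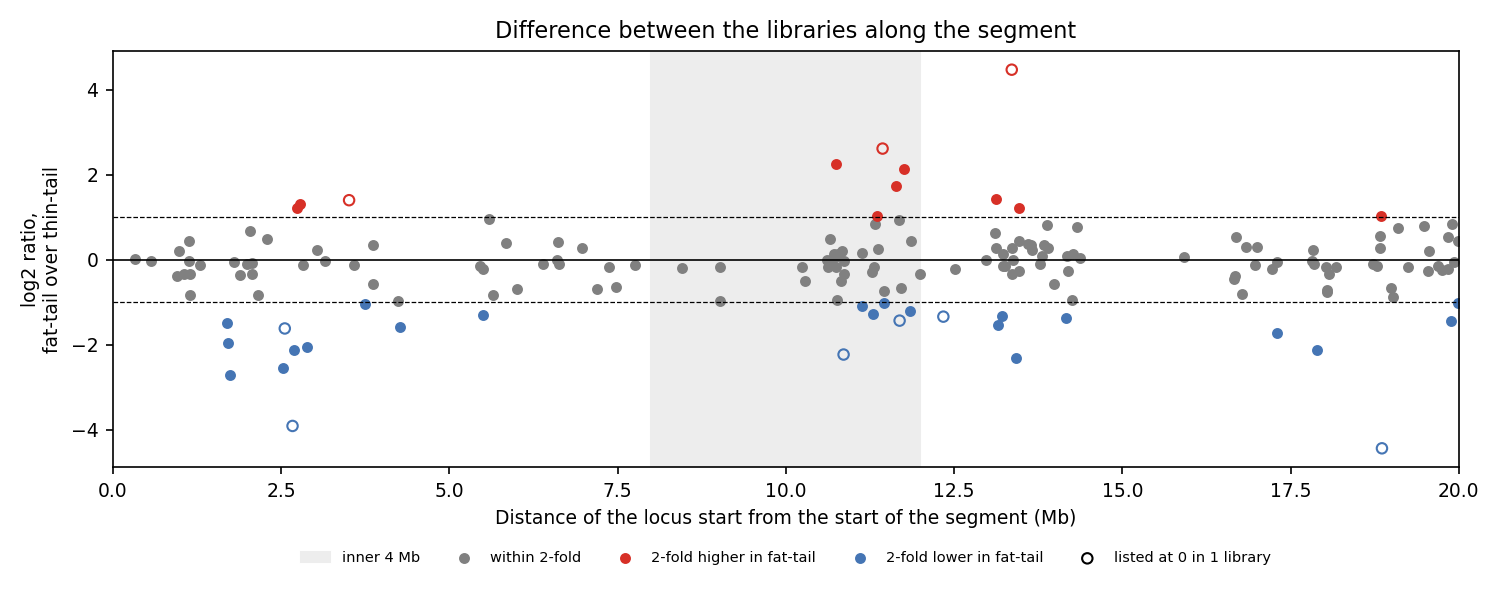
Log2 ratio of fat-tail over thin-tail FPKM + 1 (y axis) of each compared locus by distance of its start from the start of the segment (x axis); dashed lines mark 2-fold, colours the direction, open circles a value listed at 0 in 1 library, and shading the inner 4 Mb. Blue points gather between 1.7 and 2.9 Mb, and 5 of the 12 red points lie in the shaded part.

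The 3 most abundant loci made up 63.0% of the compared loci's summed FPKM in each library, and the widest difference among them was 1.30-fold. The locus at 54178677 to 54179973 read 6321 FPKM (6051 to 6591) in the thin-tail and 6721 FPKM (6467 to 6975) in the fat-tail library. The locus at 41296119 to 41299663 read 3008 FPKM (2922 to 3094) and 2744 FPKM (2635 to 2853), with intervals apart, on 4916 and 2542 implied fragments. In the fat-tail table a locus without a partner, at 41295882 to 41296988 with 2172 FPKM (1995 to 2349), overlapped it. The part of this in the ratio was not tested. The locus at 56669261 to 56672706 read 2473 FPKM (1619 to 3327) and 1896 FPKM (1253 to 2539). The last interval is wide for so high a level and corresponds to 33.5 and 34.8 implied fragments. Of the 15 loci with a mean of at least 100 FPKM, 3 were 2-fold lower and 1 was 2-fold higher, and over all chromosomes 15.7% and 8.74% of loci at that level were. The higher one (53465219 to 53465533) read 527 FPKM (473 to 581) and 1227 FPKM (1118 to 1336), and it lies inside a longer locus at 53463180 to 53466188, which read 688 FPKM (641 to 735) and 574 FPKM (542 to 606). A locus that overlaps both (53465401 to 53465913) read 619 FPKM (562 to 676) and 848 FPKM (780 to 916). FPKM thus went opposite ways in the longest of the 3 and in the others. Implied fragments were higher in the fat-tail library for all 3, at 374 and 509, 860 and 1261, and 469 and 621, and how fragments were divided between the loci was not tested.

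The most abundant locus of each remaining step differed as follows. Nearly equal levels were listed for the loci starting at 40569533, with 272 and 266 FPKM in the thin-tail and fat-tail library, at 46605654, with 27.3 and 27.4 FPKM, at 47753770, with 122 and 112 FPKM, and at 55916009, with 2.05 and 2.22 FPKM. A higher level in the fat-tail library was listed for the locus at 42036764 to 42067988, at 43.4 and 70.2 FPKM. Lower levels were listed at 43752643, with 115 and 55.7 FPKM, at 44269055, with 66.3 and 21.5 FPKM, at 45648627, with 38.6 and 21.4 FPKM, at 52000368, with 52.2 and 40.9 FPKM, at 58996806, with 84.7 and 53.1 FPKM, and at 59028799, with 201 and 110 FPKM. Intervals overlapped for the first 4 and for the locus at 52000368 and were apart for the others. At 44269055 the implied fragments, 307 and 372, went the other way from FPKM.

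Values listed at 0 in 1 library accounted for 9 of the 39 loci past 2-fold, 3 at 0 in the thin-tail and 6 in the fat-tail library. Of the 2981 loci past 2-fold over all chromosomes, 135 were at 0 in the thin-tail and 240 in the fat-tail library. A compared locus at 0 in 1 library is past 2-fold by construction. The largest differences of the segment were among its 9 such loci. The locus at 53357366 to 53499994, which spans several shorter loci, was listed at 0 in the thin-tail and at 21.2 FPKM (17.1 to 25.4) in the fat-tail library. The locus at 58858759 to 58869295 was at 20.7 FPKM (18.4 to 22.9) in the thin-tail library and listed at 0 in the other, while the locus it overlaps, at 58840124 to 58860661, read 33.8 FPKM (31.8 to 35.8) and 70.1 FPKM (66.6 to 73.6). The locus at 42669234 to 42688289 was at 14.03 FPKM (10.1 to 17.9) in the thin-tail library and at 0 in the other, where a locus without a partner inside it (42684488 to 42685045) read 12.8 FPKM (8.74 to 16.8). Each of these 3 zeros thus belonged to a locus that overlaps another with a level of its own. The other 3 outside the inner 4 Mb, starting at 42554022, 43509630 and 52340703, had at most 2.06 FPKM in the library above 0.

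Some compared loci overlapped a locus of either table that had no partner. They made up 14 of the 39 loci past 2-fold (35.9%) and 20 of the 131 within 2-fold (15.3%). Over all chromosomes the shares were 33.3% and 18.3%. These shares of the segment were near those of the genome, and the part of such loci in the differences was not tested. Further, 18 of the 39 loci past 2-fold, 4 higher and 14 lower, overlapped another locus of their own table (46.2%), as did 62 of all 170 compared loci (36.5%). Over all chromosomes these shares were 41.6% and 36.8%.

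Directions of neighbouring loci matched about as frequently in the segment as elsewhere. Among compared loci that overlap no other, 56 of 107 adjacent ones in the segment (52.3%) had ratios of the same sign, against 50.7% in the rest of the chromosome and 50.9% over all chromosomes. At the ends of the segment, the first compared locus inside (40329294 to 40414283) read 1.06 and 1.10 FPKM and the last one outside (39725473 to 39777420) 7.06 and 2.38 FPKM in the thin-tail and fat-tail library. At the other end, the last inside (59987707 to 59989171) read 2.93 and 0.940 FPKM and the first outside (60017650 to 60037398) 0.830 and 2.21 FPKM.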

How the data were processed

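Subcutaneous fat poly(A) RNA of 1 thin-tail and 1 fat-tail library was analysed. The deposited values are FPKM with a lower and an upper bound; their layout is that of Cufflinks tracking output, per the file headers. Tools named per the submitters' processing notes were FastQC, TopHat and Cuffdiff. The sources used here state no versions, build, annotation or scaling between libraries. Deposited starts count from 0 and are printed plus 1.

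Loci were matched over all chromosomes as described, after removing spans under 200 bp, with 48 tied matches dropped. A matched locus belongs to the segment when both deposited starts do, and to a step by its thin-tail start. The pseudocount was 1 FPKM and the threshold 2-fold. Implied fragments are the squared ratio of 2 times the FPKM to the upper half-width of its interval, and were not scaled for depth. The half-width is thereby assumed to be 2 standard deviations of a count. Other parts of the authors' estimation could also widen an interval, so implied fragments may differ from the reads of a locus. No test was run. Named loci are all compared loci from 48 to 52 Mb, the most abundant of each step, up to 6 of the highest and lowest ratios, those at 0 in 1 library and the outermost; others are marked as chosen after values were seen. Members and lists were chosen with earlier results of these data known. Calculations used Python 3.11.15 with pandas 2.3.3, and matching and ratios were tested on simulated data. The simulated loci had slightly shifted ends only. Split or merged loci and loci at 0 were not simulated, so the test does not cover them.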

Additional observations from a re-analysis of the deposited data

Results flagged for a closer look

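Some loci with levels above 0 lay outside every comparison. In the segment, 14 loci of the thin-tail table and 14 of the fat-tail table overlapped no locus of the other table, and the deposited interval of each lay above 0. All were assembled from their own library's reads, none with an Ensembl identifier. Such loci are seldom listed at 0, so levels above 0 are no separate result. The same counts over all chromosomes were not made, so these show nothing particular to the segment. Their levels ran from 1.11 to 3.76 FPKM (median 1.95) in the thin-tail and from 1.00 to 9.07 FPKM (median 3.05) in the fat-tail library, over median spans of 969 and 676 bp. From 48 to 52 Mb there were 3 in the thin-tail table, at 50670021 to 50670889, 50722529 to 50723802 and 51684494 to 51686018, with 1.51, 1.66 and 1.11 FPKM. The fat-tail table had 1 there, at 50647810 to 50649148, with 1.00 FPKM. Absence of a locus from 1 table does not show that its library lacked the transcript.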

How the results depend on the processing

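No paired analysis was possible because a single library per type leaves nothing to pair. Lower loci outnumbered higher ones in the segment under all 14, and the segment's median stayed below 0 under the 12 that give a median, from -0.27 to -0.01. The counts of 12 higher and 27 lower loci became 7 and 16 with a pseudocount of 5, 7 and 16 with at least 1 FPKM in both libraries, 6 and 9 with identical ends, and 4 and 9 at 4-fold. Lower loci fell to 13 without overlapping loci, and higher ones to 6 by implied fragments. From 48 to 52 Mb, 5 higher and 6 lower became 3 and 1 with a pseudocount of 5 or at 4-fold, 3 and 3 with 1 FPKM in both, and 1 and 2 with identical ends; lower loci were 2 with at least 5 FPKM, and higher ones 3 by fragments. The 48 to 52 Mb median turned to 0.030 with at least 5 FPKM and was -0.82 over 6 loci with identical ends. The segment's median was -0.27 with identical ends, -0.22 by fragments and -0.0092 centred on all loci; that of the rest of the chromosome was -0.41 with identical ends and -0.090 centred. The difference between segment and rest, 0.08, vanished without the low-value filter (1.4e-05) and turned to -0.0047 by fragments. Fewer loci or a stricter threshold set the smaller counts by construction; other causes were not tested. By implied fragments, 6 loci past 2-fold reversed: those starting at 42736074 (-2.92), 44269055 (0.28), 51352304 (-1.62), 51640558 (-0.61), 53127280 (-0.73) and 53158406 (2.04). Medians of the steps from 42, 50, 51, 53, 57 and 58 Mb changed sign under 1, 2, 3, 1, 1 and 1 alternatives; that from 53 Mb ranged from -0.11 to 0.35. Depth limits single values: the median half-width was about 26% of FPKM in each library.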

Other observations

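Some abundant loci of the segment were left out because the tables drew their ends differently; they were picked for their level after values were seen. The locus at 42404596 to 42616036 read 164 FPKM (156 to 173) in the thin-tail table, and that at 42404628 to 42567597 read 27.2 FPKM (24.2 to 30.1) in the fat-tail one. At 54361949 to 54366929 the thin-tail table listed 259 FPKM (242 to 276), and at 54363499 to 54366883 the fat-tail one listed 182 FPKM (167 to 197). A fat-tail locus at 41295882 to 41296988, with 2172 FPKM (1995 to 2349), overlapped the locus of 3008 FPKM in the thin-tail table that was matched to another. In all, 60 thin-tail and 65 fat-tail loci of the segment overlapped a locus of the other table without forming a match.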
